A study of Mus musculus with 12 samples.

Results

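Endoplasmic reticulum (ER) chaperones and the factors of the unfolded protein response (UPR) were followed in iWAT, the inguinal subcutaneous white fat of the mouse, in wild-type mice and in mice lacking Nrep. The set holds 10 genes taken by symbol: the chaperones and ER quality-control genes Hspa5, Hsp90b1, Calr, Pdia4, Dnajb9, Sdf2l1 and Herpud1, and the transcription factors Atf4, Ddit3 and Xbp1. All 10 were found in the table of 33200 genes, each under 1 identifier, and all 10 were among the 16656 genes with enough counts to be tested. The groups were 3 C57BL/6 wild-type libraries and 3 libraries of mice with a global knockout (KO) of Nrep made by CRISPR/Cas editing (Nrep-/-). All mice were 16 weeks old and ate a standard maintenance diet. The libraries are labelled as biological replicates; which part of Nrep was edited, and how many founder lines were used, is not stated in the labels. Liver libraries (6) also belong to the study and are not used here. The question is how ER chaperone and UPR transcripts differ with Nrep genotype within iWAT.

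The ER folds and modifies proteins bound for the cell surface, for secretion and for the organelles of the secretory pathway. When unfolded protein accumulates, the sensors IRE1 (gene Ern1), PERK (Eif2ak3) and ATF6 start the UPR. ATF6 and the spliced form of XBP1 raise transcription of chaperones and of degradation components, while PERK slows translation and favours translation of ATF4, which acts upstream of CHOP (gene Ddit3). Adipocytes secrete hormones such as adiponectin and leptin, and fibroblasts, macrophages and plasma cells of fat also carry a large secretory load. Much of the control of XBP1 and ATF4 lies in splicing and translation, which gene counts do not show.

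The tissue label and the genotype were checked first. Nrep had 1300 to 1640 counts in wild type and 2 to 5 in KO, a log2 fold change of -8.72 that passed edgeR's test (adjusted p = 1.82e-05), and the 10 adipocyte markers together held 14605 to 34098 CPM (counts scaled to the normalised library size) in every library. Library totals were 17970451 to 20369345 estimated counts. In edgeR's quasi-likelihood test 171 genes were past the threshold (adjusted p of 0.05), a background of 1.03% (0.865% higher and 0.162% lower in KO). That number depended on single libraries: leaving out KO replicate 2 raised it to 4221 and leaving out wild-type replicate 3 to 334. It was 3 when KO replicate 3 was dropped, and 1 when KO replicate 1 or wild-type replicate 1 or 2 was. The 6 skeletal muscle markers summed to 3515, 579 and 3174 CPM in KO replicates 1, 2 and 3, and to 8.21 to 15.2 CPM in wild type. The KO libraries thus held muscle transcripts that were scarce in wild type, with the least in KO replicate 2. Where these transcripts came from was not tested. Nothing in the labels says more on whether the libraries of a group came from separate litters, so the p-values measure the spread between these libraries.

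Promoter sequences of the members were searched for elements of UPR control. The ER stress response element ERSE (CCAAT and CCACG with any 9 bases between them) and ERSE-II (ATTGG and CCACG with any 1 base between them) are bound by NF-Y together with ATF6 or XBP1. Both were searched on both strands of the 300 bases around each RefSeq gene start (250 before, 50 after, build GRCm38.p6), for which all 10 members had an entry. ERSE was found in 3 of the 7 chaperone promoters (Hspa5, Hsp90b1 and Calr) and in 0.119% of all 32841 promoters of this length. ERSE-II was found in 1, Herpud1, and in 0.0365% of all. Neither was found in the windows of Atf4, Ddit3 or Xbp1. The 250 bases before the start are shown for the 4 genes with a match, and for Sdf2l1 and Dnajb9, the chaperone members with the largest and the smallest genotype difference, which had none. Capitals mark ERSE or ERSE-II, on either strand.
Hspa5 (chr2:34771840-34772089, plus strand): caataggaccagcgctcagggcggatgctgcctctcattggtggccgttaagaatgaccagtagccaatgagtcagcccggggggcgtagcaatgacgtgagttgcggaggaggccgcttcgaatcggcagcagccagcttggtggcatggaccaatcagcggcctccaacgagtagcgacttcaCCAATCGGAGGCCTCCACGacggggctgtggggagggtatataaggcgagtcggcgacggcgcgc
Hsp90b1 (chr10:86705445-86705694, minus strand): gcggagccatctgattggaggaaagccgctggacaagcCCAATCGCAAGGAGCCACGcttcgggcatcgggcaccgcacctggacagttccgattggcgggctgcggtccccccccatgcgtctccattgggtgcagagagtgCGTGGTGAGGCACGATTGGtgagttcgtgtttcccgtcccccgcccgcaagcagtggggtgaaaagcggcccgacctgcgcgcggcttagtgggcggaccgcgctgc
Calr (chr8:84846932-84847181, minus strand): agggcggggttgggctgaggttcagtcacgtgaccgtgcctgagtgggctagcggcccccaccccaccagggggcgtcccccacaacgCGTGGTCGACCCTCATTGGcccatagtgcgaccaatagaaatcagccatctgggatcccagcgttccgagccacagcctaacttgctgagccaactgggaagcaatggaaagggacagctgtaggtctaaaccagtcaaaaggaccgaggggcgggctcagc
Herpud1 (chr8:94386179-94386428, plus strand): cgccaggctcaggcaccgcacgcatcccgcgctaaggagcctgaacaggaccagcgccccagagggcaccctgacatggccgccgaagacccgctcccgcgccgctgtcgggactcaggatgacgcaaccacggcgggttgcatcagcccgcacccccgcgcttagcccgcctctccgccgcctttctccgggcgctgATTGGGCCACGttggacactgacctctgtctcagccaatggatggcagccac
Sdf2l1 (chr16:17132384-17132633, minus strand): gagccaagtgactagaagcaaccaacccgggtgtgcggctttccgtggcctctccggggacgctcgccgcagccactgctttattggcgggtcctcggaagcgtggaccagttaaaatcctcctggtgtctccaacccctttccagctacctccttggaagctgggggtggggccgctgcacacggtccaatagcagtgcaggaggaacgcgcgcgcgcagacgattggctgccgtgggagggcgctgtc
Dnajb9 (chr12:44210069-44210318, minus strand): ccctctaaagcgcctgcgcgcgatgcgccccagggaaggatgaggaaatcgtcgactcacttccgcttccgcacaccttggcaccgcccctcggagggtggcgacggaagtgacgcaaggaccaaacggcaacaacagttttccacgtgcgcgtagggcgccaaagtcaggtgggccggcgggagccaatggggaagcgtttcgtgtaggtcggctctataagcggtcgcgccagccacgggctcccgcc
The Hspa5 match lay 65 to 47 bases before the start and the Herpud1 match 52 to 42 bases before it. Hsp90b1 held 1 match on each strand, and Calr 1 on the reverse strand. The XBP1-type element TGACGTGG was in none of the 10 windows and in 0.676% of all promoters. The C/EBP-ATF element TGATGNAAN, a type of site used by ATF4 and CHOP, was in the Herpud1 window and in 3.95% of all promoters. These are matches of letters, not measured binding.

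Most chaperone transcripts had lower values in the KO fat, while Dnajb9 and the factor transcripts overlapped between the groups in the main fit. With libraries scaled by their totals alone, Dnajb9, Atf4 and Xbp1 did not overlap. Atf4 also did not overlap without wild-type replicate 3 or without KO replicate 3. Without KO replicate 2, Dnajb9 did not overlap either, and its KO values there lay above wild type. For 6 of the 7 chaperone members every KO library lay below every wild-type library, an arrangement that 13.1% of all tested genes showed (28.3% did not overlap in either direction). Summed over the 7 genes, the wild-type libraries held 2660.4, 3002 and 2033 CPM and the KO libraries 1762, 1629 and 1746 CPM; values are always given in the order of replicates 1, 2 and 3. The KO libraries lay close together, and the wild-type libraries spread widely, with replicate 3 nearest to KO. Their means were 1712 ± 72.6 CPM for KO and 2565 ± 491 CPM for wild type (SD, n = 3 each), which is a ratio of 0.668. None of the 7 passed edgeR's test at an adjusted p of 0.05. At an unadjusted p of 0.05, 5 of the 7 were lower and 0 higher in KO, where 9.79% of all genes were lower and 12.8% higher. DESeq2 called 3 of the 7 lower (Hspa5, Hsp90b1 and Sdf2l1), where it called 10.9% of all genes (3.6% lower and 7.34% higher). Limma-voom called 0 of the 7 and 0.0961% of all genes. The members' median log2 fold change was -0.58, against -0.06 over all tested genes.

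**Figure D1:**
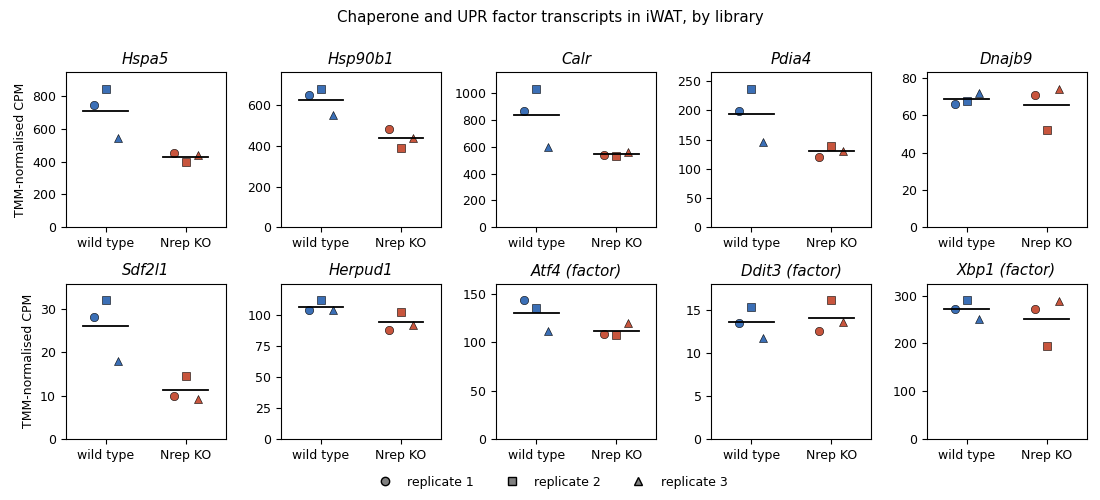
TMM-normalised CPM (y axis, linear, from 0) of each of the 10 members in the 3 wild-type (blue) and 3 Nrep KO (red) libraries. The marker shape gives the replicate number, which the labels do not state to pair the mice, and bars are group means. Hspa5, Hsp90b1, Calr, Pdia4, Sdf2l1 and Herpud1 do not overlap between the groups, whereas Dnajb9 and the 3 factors do.

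Hspa5 encodes BiP, the Hsp70-type chaperone of the ER that also holds the UPR sensors inactive. Its level was 742, 842 and 543 CPM in wild type and 449.7, 400.1 and 438 CPM in KO. The groups did not overlap, and wild-type replicate 3 was the library nearest to KO. Its means were 429 ± 25.9 CPM for KO and 709 ± 152 CPM for wild type (SD, n = 3 each). The difference was -0.72 on the log2 scale (SE 0.193, 95% interval -1.17 to -0.28, not adjusted for the number of genes), or 1.65-fold less. It did not pass edgeR's test (adjusted p = 0.0879). It passed in DESeq2 (adjusted p = 0.0102) and in edgeR without a filter on low counts (adjusted p = 0.0186). Over the 16 alternatives its adjusted p lay between 0.0102 and 0.310, and its log2 fold change between -0.88 and -0.58.

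Hsp90b1 encodes GRP94, the Hsp90-type chaperone of the ER. It had 652, 680.5 and 551 CPM in wild type and 484, 389 and 439 CPM in KO. Every KO value lay below every wild-type value, and the log2 fold change was -0.52 (SE 0.163, 95% interval -0.90 to -0.14, edgeR adjusted p = 0.119, and 0.0344 in DESeq2). In the GENCODE M21 annotation an exon of Hsp90b1 overlaps a pseudogene on the opposite strand by 270 bases. Whether reads were counted by strand is not stated in the labels.

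Calr encodes calreticulin, a calcium-binding chaperone of glycoproteins. It had 869, 1031 and 600.0 CPM in wild type and 540.0, 533 and 563 CPM in KO. The KO values differed little among themselves and lay just under wild-type replicate 3. Its log2 fold change was -0.61 (SE 0.215, 95% interval -1.11 to -0.12, edgeR adjusted p = 0.150).

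Pdia4 encodes ERp72, a protein disulfide isomerase. Its values were 199.9, 237 and 145 CPM in wild type and 120.4, 138 and 131 CPM in KO. The gap between the groups was narrow and lay between wild-type replicate 3 and KO replicate 2. Its log2 fold change was -0.58 (SE 0.188, 95% interval -1.02 to -0.14, edgeR adjusted p = 0.129). It passed only in edgeR without a filter on low counts (adjusted p = 0.0460), among 16 alternatives.

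Sdf2l1 encodes a small partner of BiP and its J-domain cochaperones. It had 28.2, 32.0 and 18.1 CPM in wild type and 9.92, 14.6 and 9.28 CPM in KO, from 167 to 686 counts per library. The groups did not overlap, and KO replicate 2 was the highest of the KO libraries. Its fold was the largest of the 10 members: the log2 fold change was -1.21 (SE 0.259, 95% interval -1.81 to -0.61), or 2.31-fold less. It did not pass edgeR's test (adjusted p = 0.0630). It passed without wild-type replicate 3 (adjusted p = 0.0388), without KO replicate 2 (adjusted p = 0.00988) and in DESeq2 (adjusted p = 0.00125), and reached 0.2500 without KO replicate 1.

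Herpud1 and Dnajb9 had the smallest differences among the chaperone members. Herpud1 encodes a membrane protein of the complex that degrades misfolded ER proteins. Its values were 104, 111 and 104 CPM in wild type and 87.7, 102 and 92.0 CPM in KO. The groups were separated by a narrow gap, which closed when libraries were scaled by the upper quartile. For Herpud1 the log2 fold change was -0.18 (SE 0.116, 95% interval -0.45 to 0.09, edgeR adjusted p = 0.376). Dnajb9 encodes ERdj4, a J-domain cochaperone of BiP and a known target of XBP1. Its values were 66.3, 67.7 and 71.9 CPM in wild type and 70.9, 52.1 and 74.1 CPM in KO. KO replicates 1 and 3 lay within or above the wild-type range and KO replicate 2 below it. For Dnajb9 the log2 fold change was -0.06 (SE 0.151, 95% interval -0.41 to 0.29, edgeR adjusted p = 0.817), and it was 0.14 without KO replicate 2.

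In the main fit the 3 factors overlapped between the groups, and none passed in the 16 alternatives, DESeq2 and limma-voom included. At an unadjusted p of 0.05, 0 of the 3 passed in edgeR. Atf4, the factor whose translation rises when eIF2 is phosphorylated, had 144, 136 and 112 CPM in wild type and 109, 108 and 119.8 CPM in KO. Wild-type replicate 3 lay inside the KO range, and the other wild-type libraries above it. The log2 fold change was -0.22 (SE 0.136, 95% interval -0.53 to 0.10, edgeR adjusted p = 0.370). Ddit3, which encodes the proapoptotic factor CHOP, had 13.5, 15.3 and 11.8 CPM in wild type and 12.5, 16.1 and 13.5 CPM in KO. The highest value was that of KO replicate 2 and the lowest that of wild-type replicate 3. The log2 fold change was 0.05 (SE 0.165, 95% interval -0.33 to 0.43, edgeR adjusted p = 0.860), and its sign turned to -0.075 with library totals alone and to -0.038 without wild-type replicate 3. An exon of Ddit3 overlaps Mars on the opposite strand by 68 bases in GENCODE M21.

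Xbp1 encodes the factor that IRE1 activates by splicing; spliced and unspliced forms are counted together here. It had 273, 289.8 and 251 CPM in wild type and 272, 194 and 288 CPM in KO. KO replicate 2 was the low library, and KO replicates 1 and 3 lay inside the wild-type range. The log2 fold change was -0.11 (SE 0.178, 95% interval -0.52 to 0.30, edgeR adjusted p = 0.722), and 0.10 without KO replicate 2. The intervals of Atf4 and Xbp1 reach the log2 fold change of Hsp90b1, so they do not show equal levels.

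**Figure D2:**
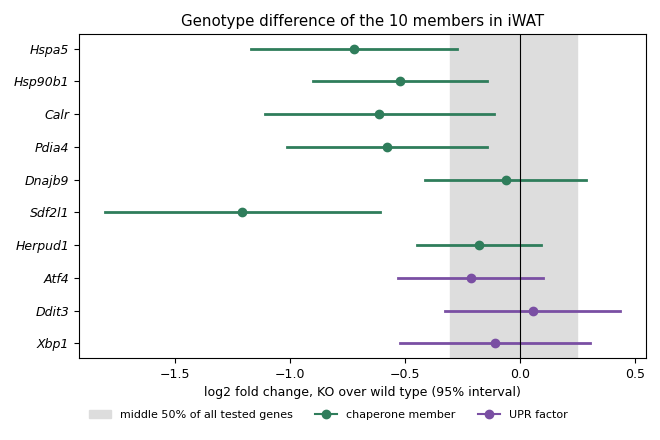
Log2 fold change, KO over wild type, with its 95% interval (not adjusted for the number of genes) for each member; green marks chaperone members, purple the factors, and the grey band holds the middle 50% of all tested genes. The points of Hspa5, Hsp90b1, Calr, Pdia4 and Sdf2l1 lie left of the band, and those of Dnajb9, Herpud1 and the factors inside it.

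The level of Hspa5 relative to each factor was compared within libraries. The log2 ratio of Hspa5 to Xbp1 CPM was 1.44, 1.54 and 1.11 in wild type and 0.73, 1.04 and 0.61 in KO. The ratio to Atf4 was 2.37, 2.63 and 2.28 in wild type and 2.04, 1.89 and 1.87 in KO. The ratio to Ddit3 was 5.78, 5.78 and 5.53 in wild type and 5.17, 4.64 and 5.02 in KO. All 3 ratios were lower in KO without overlap, by 0.57, 0.49 and 0.76 on the log2 scale between the means. They share the Hspa5 values, which did not overlap on their own, so they are not 3 separate results. Each ratio had an exact permutation p of 0.1 (two-sided, n = 3 each; 0.1 also after adjustment over the 3 ratios), which is the smallest this design allows, so the difference could not pass 0.05.

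Levels between genes were compared per kilobase of annotated exon (GENCODE M21). In wild type Calr was the most abundant member at 289 ± 75.6 CPM per kb, followed by Hspa5 at 168 ± 35.9 and Hsp90b1 at 156 ± 16.9 (SD, n = 3 each). Hspa5 and Hsp90b1 did not differ beyond their spread, and in KO their order was the opposite, at 101 ± 6.13 and 108 ± 11.8 CPM per kb. Xbp1 (83.5 ± 5.99) and Pdia4 (80.9 ± 19.2) were level with each other in wild type, and in KO they stood at 77.3 ± 15.5 and 54.1 ± 3.76. Atf4 followed at 55.3 ± 7.02, Herpud1 at 45.6 ± 1.90, Dnajb9 at 26.9 ± 1.14 and Sdf2l1 at 23.5 ± 6.50. Dnajb9 and Sdf2l1 did not differ beyond the spread of Sdf2l1 in wild type, while Atf4 and Herpud1 lay farther apart than the SD of either. Ddit3 was the least abundant member in both groups, at 7.89 ± 1.05 CPM per kb in wild type and 8.19 ± 1.07 in KO.

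Across the 6 libraries most chaperone members shared a pattern that Dnajb9 did not. Hspa5, Hsp90b1, Calr, Pdia4 and Sdf2l1 were highest in wild-type replicate 2, next highest in replicate 1, and intermediate in replicate 3. The log2 CPM of Hspa5 had a Pearson r of 0.97 with Hsp90b1, 0.98 with Calr, 0.95 with Pdia4 and 0.91 with Sdf2l1 over these libraries. Dnajb9 instead ran with Xbp1 (r = 0.88) and against Ddit3 (r = -0.74), and its r with Hspa5 was 0.24. In Dnajb9 and Xbp1 the low value of KO replicate 2 sets the pattern. Atf4 had r = 0.87 with Hspa5 and 0.90 with Calr. These are descriptions over 6 libraries that share the genotype difference, and wild-type replicate 3 and KO replicate 2 weigh heavily in them.

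**Figure D3:**
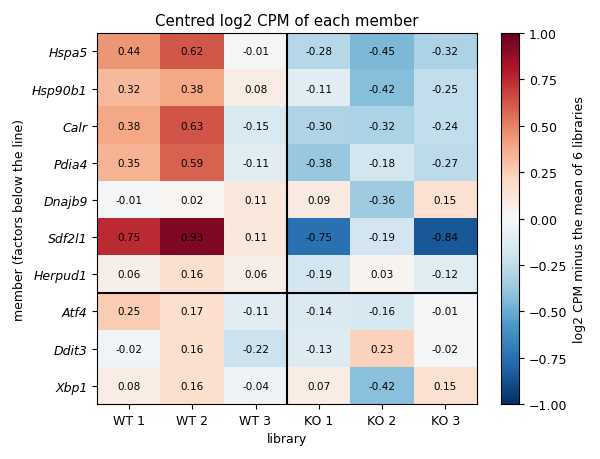
Log2 CPM of each member (rows) in each library (columns), minus the member's mean over the 6 libraries; red is above and blue below that mean, the horizontal line parts the chaperones from the factors and the vertical line the genotypes. KO replicate 2 is the lowest library for Dnajb9 (-0.36) and Xbp1 (-0.42), and the highest for Ddit3 (0.23).

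Outside the members, the 5 tested genes with a mean of at least 10 CPM whose pattern was most like the mean standardised log2 CPM of the 7 chaperone members were Slc11a1 (r = 0.998), Marcks (0.997), Myof (0.996), Pdia3 (0.995) and Synj1 (0.995), over 6 libraries. Pdia3 encodes another disulfide isomerase of the ER. Slc11a1, a metal transporter of macrophage phagosomes, had 39.4, 48.9 and 26.1 CPM in wild type and 18.2, 17.0 and 19.3 CPM in KO. Neither gene passed edgeR's test (adjusted p = 0.0625 for Slc11a1 and 0.108 for Pdia3).

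Other ER folding genes ran in the same direction as the chaperone members. Of 23 such genes, 19 had negative log2 fold changes, with a median of -0.32, against 55.8% negative over all tested genes. None passed in edgeR or limma-voom. At an unadjusted p of 0.05, 9 were lower and 1 higher (9.79% and 12.8% of all genes), and DESeq2 called 3 lower (3.6% of all genes). Without overlap between the groups, 9 were lower and 1 higher, as were 13.1% and 15.2% of all genes. Pdia3 had 542, 593 and 426 CPM in wild type and 349, 349 and 365 in KO, without overlap (log2 fold change -0.56, edgeR adjusted p = 0.108). Manf, a secreted ER protein induced by stress, had 88.8, 113 and 65.1 CPM in wild type and 53.3, 61.6 and 52.9 in KO, without overlap (log2 fold change -0.67, edgeR adjusted p = 0.108). Erp29, a folding helper, and Pdia5 had log2 fold changes of -0.48 and -0.54 (edgeR adjusted p = 0.0905 and 0.0943). P4hb, the disulfide isomerase that also serves collagen prolyl hydroxylase, overlapped between groups with a log2 fold change of -0.31 (edgeR adjusted p = 0.371). Hyou1 and Creld2, named after their values were seen as further UPR-induced folding genes, had log2 fold changes of -0.53 and -0.70 (edgeR adjusted p = 0.132 and 0.125). Creld2 overlapped between the groups and Hyou1 did not. The gene higher without overlap was Sil1, likewise named after its values were seen (log2 fold change 0.39, edgeR adjusted p = 0.176). ERSE was found in 5 of the 19 promoters matched for this list (Canx, Creld2, Dnajc3, Ero1b and Pdia6), and in 0.119% of all promoters.

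Genes of ER-associated degradation did not share that direction. Of 20 tested, 10 had negative and 10 positive log2 fold changes, with a median of -0.01. None passed in edgeR, DESeq2 or limma-voom. At an unadjusted p of 0.05, 2 were higher and 0 lower, where 12.8% of all genes were higher and 9.79% lower. Derl1, part of the channel through which misfolded proteins leave the ER, had 175, 179 and 157 CPM in wild type and 235, 192 and 253 in KO, all higher (log2 fold change 0.41, edgeR adjusted p = 0.160). Ufd1, a cofactor of the extracting ATPase Vcp, had a log2 fold change of 0.27 (edgeR adjusted p = 0.214) and Vcp itself one of 0.01 (adjusted p = 0.967). Ube2j1 and Erlec1 had log2 fold changes of -0.22 and 0.19 (edgeR adjusted p = 0.338 and 0.345). Without KO replicate 2, 2 of the 20 passed as higher, a share no larger than the 14.5% of all genes higher in that fit (25.3% passed in either direction, 10.9% lower). ERSE was also found here, in 2 of the 15 promoters matched for this list (Derl3 and Syvn1; 0.119% of all promoters). The difference between this list and the chaperones was not tested.

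Among the UPR sensors and transducers the largest difference was that of Creb3l1. All 10 had negative log2 fold changes, where 55.8% of all genes did, with a median of -0.18. Mbtps1, the gene of this list with the highest mean CPM, had -0.0004 (edgeR adjusted p = 0.999). None passed in edgeR or limma-voom. Only 1 was lower at an unadjusted p of 0.05 (9.79% of all genes), and DESeq2 called 1 lower (3.6% of all genes). Creb3l1, an ATF6-like transmembrane factor (OASIS) known to act on collagen secretion, had 29.0, 35.5 and 19.0 CPM in wild type and 13.2, 12.3 and 15.7 in KO, without overlap (log2 fold change -1.02, SE 0.231, edgeR adjusted p = 0.0670). Ern1, which encodes IRE1, had log2 fold change -0.21 (edgeR adjusted p = 0.293) and Eif2ak3, which encodes PERK, -0.30 (adjusted p = 0.270). Eif2s1, the eIF2 subunit that the stress kinases phosphorylate, had -0.23 (adjusted p = 0.245).

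On the PERK and ATF4 side, transcripts had values in both directions. Ppp1r15a encodes GADD34, the stress-induced subunit of the phosphatase that restores translation. It had 39.9, 44.0 and 37.2 CPM in wild type and 29.6, 28.6 and 25.0 CPM in KO, without overlap (log2 fold change -0.54, SE 0.123, edgeR adjusted p = 0.0668). Eif2ak2, the kinase activated by double-stranded RNA, had a log2 fold change of -0.55 (edgeR adjusted p = 0.141), while Eif2ak1, Eif2ak4 and Ppp1r15b had values of 0.09, -0.12 and -0.09. Of these 5 genes of kinases and phosphatase subunits, 0 passed in edgeR or limma-voom. The number lower at an unadjusted p of 0.05 was 2 (9.79% of all genes), and DESeq2 called 1 lower (3.6% of all genes).

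Of 26 tested targets of ATF4 and CHOP, 14 had negative and 12 positive log2 fold changes, with a median of -0.10. None passed in edgeR or limma-voom. Without adjustment, at a p of 0.05, 4 were lower and 5 higher, where 9.79% and 12.8% of all genes were. DESeq2 called 2 lower and 1 higher, where it called 3.6% and 7.34% of all genes. Atf3, a stress-induced repressor, had 18.7, 19.2 and 10.5 CPM in wild type and 6.77, 6.90 and 4.45 in KO, without overlap (log2 fold change -1.41, edgeR adjusted p = 0.0595). Slc7a11, the cystine transporter, had a log2 fold change of -1.25 (edgeR adjusted p = 0.0808). Vldlr, a lipoprotein receptor, had 51.1, 42.4 and 62.2 CPM in wild type and 104, 63.4 and 110.0 in KO, all higher (log2 fold change 0.83, edgeR adjusted p = 0.0968). Cth and Phgdh, enzymes of cysteine and serine synthesis, had log2 fold changes of 0.58 and 0.40 (edgeR adjusted p = 0.152 and 0.215). Ddit4 had a log2 fold change of -0.37 (edgeR adjusted p = 0.372). The list's summed level overlapped between groups, at 1376 to 1427 CPM in wild type and 1278 to 1639.9 CPM in KO. The remaining target, Fgf21, had 1 or 2 counts in each library and was not tested. Of the 22 target promoters matched, 10 held TGATGNAAN, among them those of Atf3, Vldlr and Slc7a11.

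The ER translocon and glycosylation genes import and glycosylate the chaperones' clients. Of these 22 genes, 18 had negative log2 fold changes (55.8% of all genes), with a median of -0.21. None passed in edgeR or limma-voom. In edgeR at an unadjusted p of 0.05, 6 were lower and 0 higher (9.79% and 12.8% of all genes), and DESeq2 called 2 lower (3.6% of all genes). Ostc, a subunit of the oligosaccharyltransferase, had 68.4, 77.3 and 49.8 CPM in wild type and 39.0, 46.2 and 38.8 in KO, without overlap (log2 fold change -0.66, edgeR adjusted p = 0.0879). Spcs3, of the signal peptidase, and Rpn1 had log2 fold changes of -0.45 and -0.49 (edgeR adjusted p = 0.0952 and 0.155). Sec61g and Ssr3 had log2 fold changes of -0.51 and -0.15 (edgeR adjusted p = 0.146 and 0.523). Stt3b, a catalytic subunit of the oligosaccharyltransferase, had one of 0.24 (edgeR adjusted p = 0.357).

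**Figure D4:**
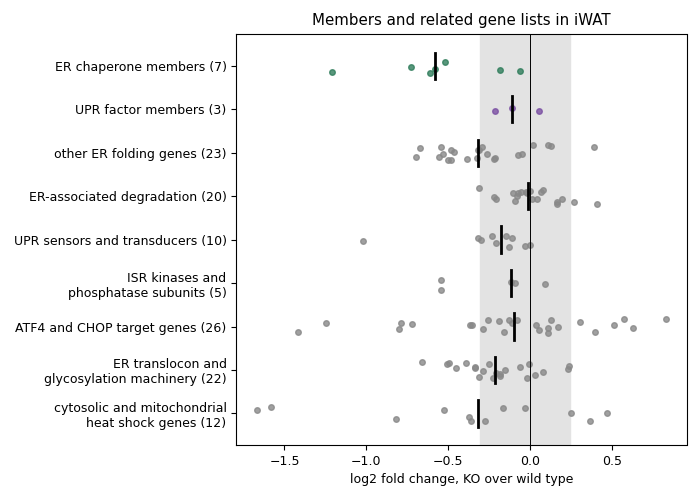
Log2 fold change, KO over wild type (x axis), of every tested gene (points) in the chaperone members, the factors and 7 related lists, with the number of genes in brackets; black bars are list medians and the grey band holds the middle 50% of all tested genes. The chaperone median (-0.58) lies left of the band, the medians of the other ER folding (-0.32) and heat shock genes (-0.32) near its left edge, and that of ER-associated degradation at -0.01.

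Summed markers of several cell types also had unlike levels in the groups. In edgeR 0 of the macrophage, fibroblast, endothelial, plasma cell and epithelial markers passed. Slc2a4, 1 of the 10 adipocyte markers, passed as higher in KO (edgeR adjusted p = 0.0435). So did all 6 muscle markers, where 0.865% of all genes passed as higher. In bulk tissue, fewer cells of a type and less RNA per cell cannot be told apart. All 8 macrophage markers had negative log2 fold changes, 7 of them without overlap (13.1% of all genes), and their sum was 2754 to 3967 CPM in wild type and 1939 to 2244 CPM in KO. Within wild type the macrophage sum was highest in replicate 2 and lowest in replicate 3, the same order as the chaperone sum. The fibroblast, plasma cell and factor sums had that order too. In KO the macrophage sum was highest in replicate 2, where the chaperone sum was lowest. The 8 fibroblast and progenitor markers summed to 8490.0 to 10364 CPM in wild type and to 4766 to 9248 CPM in KO, with overlap, and 5 of them had negative log2 fold changes. All 10 adipocyte markers had positive log2 fold changes, and their sum was 14605 to 18402 CPM in wild type and 19597 to 34098 CPM in KO. Among the KO libraries replicate 2 had the lowest adipocyte, fibroblast, muscle and factor sums, and the highest plasma cell and macrophage sums. It also had the lowest chaperone sum, at 1629 CPM against 1746 and 1762 CPM in the others. The 7 plasma cell markers overlapped, at 384 to 434 CPM in wild type and 232 to 445 CPM in KO, and the 4 tested epithelial markers summed to at most 12.0 CPM. The 5 endothelial markers summed to 819.8 to 895 CPM in wild type and 996 to 1190.0 CPM in KO. None of these markers was at 0 throughout a group. Ckm and Myh4, 2 of the 6 muscle markers, had 0 to 3 counts in each wild-type library. The part of these markers in the chaperone values was not tested.

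**Figure D5:**
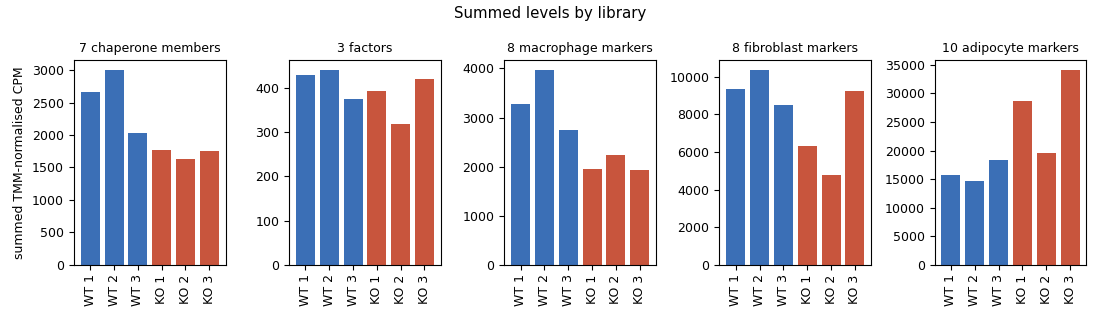
Summed TMM-normalised CPM (y axes, linear, from 0, each panel with its own scale) per library for the 7 chaperone members, the 3 factors and the macrophage, fibroblast and adipocyte markers; blue is wild type and red KO. The chaperone and macrophage sums are lower in all 3 KO libraries than in any wild-type library, the factor sums overlap, and the adipocyte sums are higher in KO.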

How the data were processed

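Poly(A)-selected RNA of 6 iWAT samples (3 wild type, 3 Nrep-/-) was sequenced from libraries of a strand-marking kit (Illumina Stranded mRNA Prep), per the labels' protocols. The values deposited by the authors are estimated counts per gene and library, neither scaled nor pooled. Of these, 9.53% to 11.1% per library were not whole. No source used here names the program that made the estimates. For the whole series fastp, featureCounts, GRCm38 and GRCm39 are listed, per the submitters' processing notes. All deposited counts of the 10 members were whole except 1 value of Hsp90b1. Symbols came from GENCODE M21 and matched 26372 of 33200 identifiers (79.4%).

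Counts were rounded, filtered with filterByExpr, normalised with TMM and tested with edgeR 4.0.16 (R 4.3.3): quasi-likelihood F-test, robust, two-sided, no covariate, Benjamini-Hochberg over 16656 genes, adjusted p of 0.05. CPM are on TMM-scaled library sizes; 1 count was worth 0.0466 to 0.0574 CPM. The SE is the log2 fold change divided by the square root of F, and intervals use the fit's total degrees of freedom. Patterns across libraries used log2 CPM with a prior count of 2. Alternatives were DESeq2 1.42.0, limma-voom (limma 3.58.1), other scalings, filters and thresholds, a block on the replicate number, and fits without 1 library at a time. Members and lists were chosen with earlier results of these data known. Named list genes are the 4 with the smallest p and the 2 with the highest mean CPM per list. Exceptions are promoter matches and genes marked as named after their values were seen. Promoter sequences are from RefSeq (GRCm38.p6); which build the counts use is not stated, so no coordinates of the counted genes are stated.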

Additional observations from a re-analysis of the deposited data

How the results depend on the processing

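The 7 chaperone members were lower as a group in every fit run: their median log2 fold change lay at -0.75 to -0.43 over all 16 alternatives. How many passed the test did not hold. From 0 in edgeR, it became 3 lower in DESeq2, 3 without a filter, 2 at an adjusted p of 0.10, 1 with a replicate block and 0 to 1 without 1 library. Beside these, 3.6% of all genes were lower in DESeq2, 442 of 33094 without a filter and 458 of 16656 at an adjusted p of 0.10. The factors had 0 calls throughout; their median moved to -0.26 with library totals alone, a scaling that shifts the median of all genes by -0.13 and under which Atf4 and Xbp1 no longer overlapped. That scaling gave a KO to wild-type ratio of 0.606 for the summed chaperones and reversed Ddit3 to -0.075. Without 1 library at a time the log2 fold change of Ddit3 lay between -0.038 (without wild-type replicate 3, reversed) and 0.15, that of Dnajb9 between -0.16 and 0.14, and that of Xbp1 between -0.22 and 0.10; the last 2 were reversed without KO replicate 2. The 7 other lists held 23, 20, 10, 5, 26, 22 and 12 tested genes. Of these genes, 0 were lower and 0 higher in edgeR, 12 and 1 in DESeq2, and 10 and 1 without a filter. The counts were 11 and 1 at an adjusted p of 0.10, and 9 and 1 with a replicate block. Without 1 library they were 0 to 17 lower and 0 to 14 higher, the highest without KO replicate 2. Of all genes, DESeq2 called 3.6% lower and 7.34% higher. Those higher were 928 of 33094 without a filter and 920 of 16656 at an adjusted p of 0.10. In the fit without KO replicate 2, 10.9% of all genes were lower and 14.5% higher. All genes past the test, 171 (144 higher, 27 lower), became 1823 (1223 and 600) in DESeq2, 16 (15 and 1) in limma-voom, 1370 (928 and 442) without a filter, 1378 (920 and 458) at an adjusted p of 0.10, and 1 to 4221 (0 to 2410 higher, 1 to 1811 lower) without 1 library; library totals alone gave 49 lower and the upper quartile 218 higher genes. The cause of these changes was not tested. Fits without 1 library also hold fewer samples, and the highest count, 4221, was that without KO replicate 2.

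The labels do not say whether the replicate numbers pair the mice, and 3 libraries per group cannot decide it. Deviations from the group means of same-numbered libraries correlated at -0.01, 0.20 and 0.11. Wild-type replicates 1 and 3 correlated best with other numbers, and wild-type replicate 2 with its own. With the replicate block 1225 of 16656 genes passed (790 higher, 435 lower), and among the members Sdf2l1 passed (adjusted p = 0.0146). Depth limits the members little, since the lowest count of any member was 167.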

Other observations

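Heat shock genes of the cytosol and the mitochondria had values in both directions. Of 12 cytosolic and mitochondrial heat shock genes, 9 had negative log2 fold changes (55.8% of all genes), with a median of -0.32. Without overlap, 6 were lower and 1 higher, where 13.1% and 15.2% of all genes were. None passed in edgeR or limma-voom. At an unadjusted p of 0.05, 4 were lower and 1 higher (9.79% and 12.8% of all genes), and DESeq2 called 3 lower (3.6% of all genes). Hsph1, a nucleotide exchange factor of Hsp70 chaperones, had 60.4, 90.8 and 63.8 CPM in wild type and 38.8, 41.2 and 42.2 CPM in KO, without overlap (log2 fold change -0.82, edgeR adjusted p = 0.0625). Hspa1a and Hspa1b, the stress-inducible Hsp70 genes, had log2 fold changes of -1.67 and -1.58 (edgeR adjusted p = 0.0625 and 0.0637), values that are uncertain because the copies are nearly identical. Wild-type replicate 3 held 7.83 CPM of Hspa1a, against 17.9 and 20.7 CPM in the other wild-type libraries and 4.47 to 5.06 CPM in KO. Hspa8, the constitutive Hsp70, and Hsp90ab1 had values of -0.52 and -0.36 (edgeR adjusted p = 0.176 and 0.259). The gene higher without overlap was Hspa9, the mitochondrial Hsp70, named after its values were seen. It had 388, 374 and 341 CPM in wild type and 562, 398 and 573 CPM in KO, all higher (log2 fold change 0.47, edgeR adjusted p = 0.178). Hspd1, the mitochondrial Hsp60, likewise named after its values were seen, overlapped between the groups with a log2 fold change of 0.25 (edgeR adjusted p = 0.401).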
